A study of Mus musculus with 16 samples.

Results

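The expression of 9 mouse genes of the proneural and Notch systems was followed in embryoid bodies (EBs, floating aggregates of differentiating embryonic stem cells) before and after retinoic acid (RA). The genes were chosen by their symbols, as the RefSeq transcripts of Neurog1, Neurog2, Neurod1, Neurod4, Dll1, Dll3, Notch1, Hes1 and Hes5 in the deposited table, and they are 9 of the 24169 genes it holds. The day 0 EBs were made from R1 embryonic stem cells kept for 4 days without Lif, and their RNA was taken on the day RA was added. The day 4 EBs had then received 2 µM RA for 4 days. The procedure was carried out in 2 biological replicates, so day 0 and day 4 each had 2 RNA samples. Each RNA sample was divided into 4 vials, which received synthetic mouse spike-in mix 1, 2 or 3 or, for mix 4, none of these transcripts, and each vial gave 1 library, 16 in all. The 4 vials of 1 RNA were averaged before the main test. It thus compared 2 RNA samples of day 0 with 2 of day 4 and measured the spread between these samples. Some alternatives instead used 1 vial of each RNA, used all 16 libraries with an estimated correlation, or left out 1 RNA sample. The ranges of adjusted p over the alternatives include these fits. No untreated EBs of the later age were measured, so RA and 4 more days of culture cannot be told apart. In these bulk RNA samples, fewer cells of a type and less RNA per cell cannot be told apart either.

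Proneural basic helix-loop-helix (bHLH) proteins are transcription factors that commit a progenitor cell to become a neuron. They pair with E proteins, bind short DNA sites called E-boxes and switch on Delta ligands, which activate Notch receptors on the neighbouring cell. The cut intracellular part of Notch joins the DNA-binding protein Rbpj and switches on Hes genes, whose products repress the proneural genes. In the embryo the same receptor and ligands also serve outside the nervous system, among other places in the segmentation of the presomitic mesoderm.

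The table gives FPKM, the fragments of a transcript scaled to its length and to the size of the library, a level per length that allows genes to be compared. Each of the 9 genes had 1 RefSeq row. Values were rounded to steps of about 0.01 FPKM, and the number of fragments behind a value is not known, so a gene below 0.1 FPKM rests on a few steps and no counting error can be given. Differences between the days are on the log2(FPKM + 0.1) scale, day 4 minus day 0, with their standard error (SE), and understate the change of such low genes. They were tested with limma across 20496 genes, with Benjamini-Hochberg adjustment and a threshold of 0.05. An exact two-sided permutation test of 2 against 2 RNA samples cannot give a p below 0.333, so no single gene could pass 0.05 by it.

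The libraries were not alike in their GC content (the share of G and C bases). The vials of mix 3 and mix 4 of day 0 replicate 2, named the divergent vials here, stood apart from the other 6 day 0 libraries, with GC-rich transcripts low and GC-poor ones high, and all day 4 libraries leaned the same way. Among genes with a mean of at least 1 FPKM, the median difference between the days was 0.72 for 531 genes with 30 to 40% GC and -1.71 for 469 genes with 60 to 70% GC. Over all tested genes the median was -0.02, and 0.03 once each library was corrected for GC content. Values without the divergent vials and GC-corrected values are therefore given below for the 9 genes where they change a call or the size of a difference, and for the other genes mostly as counts, and the part of GC content in the results was not tested beyond them.

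At day 4, 6 of the 9 genes differed from day 0. Notch1, Dll3, Dll1 and Neurod1 were lower, and Neurod4 and Neurog2 were higher, both from levels near 0. Hes1, Hes5 and Neurog1 did not pass the threshold. Of all tested genes 30.5% passed it, 16% with higher and 14.5% with lower levels at day 4. The 8 libraries of one day did not overlap the 8 of the other for 6 of the 9 genes, against 34.4% of all genes. In 5 of them (Neurod1, Dll1, Dll3, Notch1 and Hes1) day 4 was below, against 14.6% of all genes, and in 1 (Neurod4) above, against 19.8%. The median difference of the 9 genes was -0.76. In the libraries of mix 1 alone and of mix 2 alone 6 genes passed, with Hes1 in place of Neurog2. Of all genes tested, 12302 of 18840 passed in mix 1 alone and 9628 of 18933 in mix 2 alone. In mix 3 alone 478 of 18931 passed, and in mix 4 alone 1119 of 18895. None of the 9 passed in mix 3 alone or of mix 4 alone, the mixes that hold the divergent vials, and none when either day 4 replicate was left out (0 of all 20496 genes then passed).

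**Figure D1:**
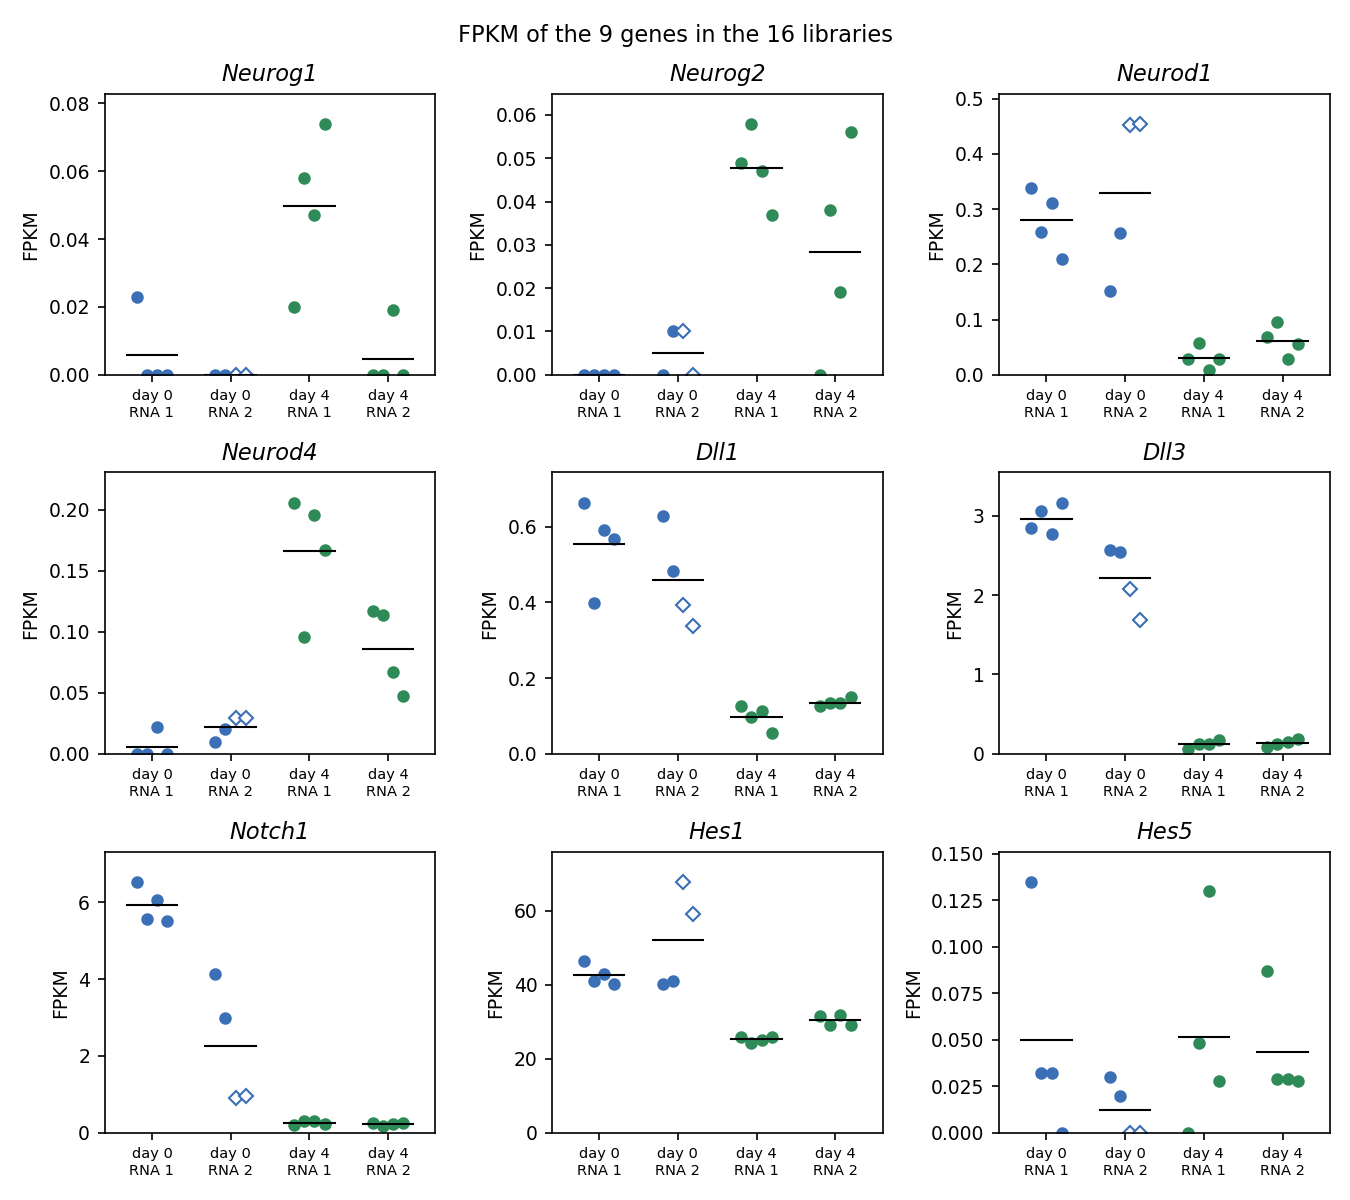
Level of each gene in FPKM (vertical axis, its own scale in each panel, from 0) in the 16 libraries, grouped by RNA sample (RNA 1 and RNA 2 are replicates 1 and 2). Points are vials in the order of mix 1 to mix 4, open diamonds the divergent vials and lines the mean of 4 vials. Dll3 and Notch1 lie at or below 0.308 FPKM in all day 4 libraries, while Hes1 stays at or above 24.3 FPKM in every library.

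Hes1, a repressor that many signals besides Notch switch on, had by far the highest level of the 9 genes on both days. At day 0 its RNA samples were followed by Notch1 (2.25 and 5.92 FPKM) and Dll3 (2.22 and 2.96 FPKM), whose ranges overlapped, then by Dll1 (0.461 and 0.556 FPKM) and Neurod1 (0.280 and 0.329 FPKM). Hes5, Neurod4, Neurog1 and Neurog2 had less than 0.05 FPKM in each day 0 RNA sample. At day 4 Notch1 was second (0.234 and 0.256 FPKM). Neurod4, Dll3 and Dll1 came next with overlapping ranges, and the RNA samples of the remaining 4 genes lay at or below 0.062 FPKM.

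Neurog1 and Neurog2, the determination factors that start neuron formation in sensory ganglia, spinal cord and dorsal forebrain, were hardly detected on either day. Neurog1 (NM_010896, with the RefSeq gene span over all its transcripts, chr13:56250478-56252180, minus strand of mm10, 1 exon) was listed above 0 in 1 of 8 day 0 libraries, at 0.023 FPKM in the mix 1 vial of replicate 1, and in 5 of 8 day 4 libraries. In day 4 replicate 1 its 4 vials held 0.020, 0.058, 0.047 and 0.074 FPKM for mixes 1 to 4, and in day 4 replicate 2 only the mix 3 vial was above 0, with 0.019 FPKM. The day 4 signal of Neurog1 thus came almost wholly from 1 RNA sample, the days overlapped, and its difference of 0.28 (SE 0.19) had an adjusted p of 0.32. Neurog2 (NM_009718, chr3:127632733-127635636, plus strand, 2 exons) was at 0 in 6 day 0 libraries and at 0.01 FPKM in 2, the mix 2 and mix 3 vials of replicate 2. At day 4 Neurog2 held 0.049, 0.058, 0.047 and 0.037 FPKM in replicate 1 and 0, 0.038, 0.019 and 0.056 FPKM in replicate 2. Its difference of 0.43 (SE 0.09) passed the threshold with an adjusted p of 0.0415, although 1 day 4 library at 0 made the days overlap. With a pseudocount of 1 the adjusted p of Neurog2 was 0.068, and over all alternatives it ranged from 0.00983 to 0.369.

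Neurod1 and Neurod4, differentiation factors that normally act after the neurogenins, moved in opposite directions. Neurod1 (NM_010894, chr2:79452637-79456636, minus strand, 2 exons) had 0.338, 0.259, 0.312 and 0.210 FPKM in day 0 replicate 1 and 0.152, 0.256, 0.452 and 0.455 FPKM in replicate 2, where the last pair are the divergent vials. At day 4 Neurod1 had 0.029, 0.058, 0.009 and 0.028 FPKM in replicate 1 and 0.068, 0.095, 0.029 and 0.056 FPKM in replicate 2. Every day 4 library was thus below every day 0 library, and the mean fell from 0.304 ± 0.0347 to 0.0465 ± 0.0219 FPKM (SD, n = 2), a ratio of day 0 to day 4 of 6.54. The difference was -1.47 (SE 0.17, adjusted p = 0.0125). In mixes 1 and 2 alone its adjusted p was 0.0318 and 0.0171, and in mixes 3 and 4 alone it was 0.0616 and 0.112. The Neurod1 transcript has 43.6% GC. The 1047 genes with a GC content within 1 point of it and a mean of at least 1 FPKM had a median difference of 0.40. Neurod1 itself lay below that level on both days, and the part of GC content in its fall was not tested. After GC correction the difference of Neurod1 was -1.65 (SE 0.13).

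Neurod4 (NM_007501, chr10:130268152-130280254, minus strand, 2 exons) was at 0 in 3 day 0 libraries and reached at most 0.029 FPKM in the other 5, the highest being the divergent vials. The day 4 vials had 0.206, 0.096, 0.196 and 0.167 FPKM in replicate 1 and 0.117, 0.114, 0.067 and 0.047 FPKM in replicate 2, all above every day 0 library. The difference was 0.97 (SE 0.21, adjusted p = 0.0411). Its transcript has 38.0% GC, and the 212 genes within 1 point of it had a median difference of 0.77. Those genes had a mean of at least 1 FPKM, whereas at the low level of Neurod4 the added 0.1 compresses a difference. With a pseudocount of 0.01 the difference of Neurod4 was 2.55, and with 1 it was 0.15, so its size beside these genes is not settled. The GC-corrected difference was 0.76 (SE 0.22, adjusted p = 0.0498), and over the alternatives the adjusted p ranged from 0.00113 to 0.291.

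The ligands fell. Dll1 activates Notch on neighbouring cells, whereas Dll3 is known to act inside the cell that makes it and to be needed for somite segmentation. Dll3 (NM_007866, chr7:28293555-28301785, minus strand, 9 exons) had 2.85, 3.06, 2.77 and 3.17 FPKM in day 0 replicate 1 and 2.56, 2.55, 2.08 and 1.68 FPKM in replicate 2. The day 4 vials had 0.059, 0.125, 0.121 and 0.176 FPKM in replicate 1 and 0.087, 0.124, 0.143 and 0.187 FPKM in replicate 2, so the lowest day 0 library, a divergent vial, was still far above the highest day 4 library. The mean fell from 2.59 ± 0.525 to 0.128 ± 0.0106 FPKM (SD, n = 2), a ratio of 20.3, or 14.7 when only the divergent vials stood for day 0. The difference of -3.55 (SE 0.27, adjusted p = 0.00608) had the smallest adjusted p of the 9 genes. Dll3 is GC-rich (61.0%), and the 296 genes within 1 point of it had a median difference of -1.75. GC correction left a difference of -2.61 (SE 0.74, adjusted p = 0.0495), and the adjusted p over all alternatives ranged from 2e-09 to 0.138. The correction made the divergent vials the highest of day 0, at 7.13 and 4.64 corrected FPKM against 0.721 to 1.58 in the other 6, so the corrected day 0 mean of Dll3 rests largely on them.

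Dll1 (NM_007865, chr17:15367354-15376932, minus strand, 11 exons) had 0.664, 0.399, 0.592 and 0.568 FPKM in day 0 replicate 1 and 0.628, 0.482, 0.393 and 0.339 FPKM in replicate 2. At day 4 Dll1 had 0.127, 0.096, 0.112 and 0.056 FPKM in replicate 1 and 0.126, 0.133, 0.134 and 0.149 FPKM in replicate 2, all below the day 0 libraries. The mean fell from 0.508 ± 0.0674 to 0.117 ± 0.0267 FPKM (SD, n = 2), a ratio of 4.36. The difference was -1.49 (SE 0.20, adjusted p = 0.0165). The Dll1 call ended with GC correction, where the difference was -1.01 (SE 0.31) with an adjusted p of 0.0597, or 0.00756 with the replicate as a block, within a range of 2.9e-05 to 0.19 over all alternatives. The divergent vials of Dll1 were again the highest of day 0 once corrected, at 0.797 and 0.582 FPKM against at most 0.384 in the other 6. The 1139 genes within 1 point of its 54.9% GC had a median difference of -0.76.

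The windows before the starts of Dll1 and Dll3 are shown because E-boxes, the sites of proneural proteins, can be read in them. RefSeq windows of 250 bases before a transcript start (GRCm38.p6, the mm10 build) matched 8 of the 9 genes with 10 windows; Hes1 had no entry. Both strands were searched for the E-box CANNTG, the Rbpj site GTGGGAA and the Hes site CACNAG, and no matches of different motifs overlapped. Of 32851 such windows, 66.2% hold an E-box, 5.42% the Rbpj site and 36.7% the Hes site. An E-box occurs at 2 or more places in 31.8% of them. An E-box was found in 5 of the 10 windows, those of Neurod1, Dll3, Hes5 and both of Dll1, and the Hes site in 3, those of Notch1 and both of Neurod4. Capitals mark the E-boxes, which begin at positions -229, -155 and -132 of Dll1 and -228 and -7 of Dll3, where -1 is the last base before the start. The other Dll1 window, not printed, holds 1 E-box, at -220. The printed Dll1 window is chr17:15376933-15377182 and the Dll3 window chr7:28301786-28302035, both on the minus strand from 5′ to 3′.
Dll1: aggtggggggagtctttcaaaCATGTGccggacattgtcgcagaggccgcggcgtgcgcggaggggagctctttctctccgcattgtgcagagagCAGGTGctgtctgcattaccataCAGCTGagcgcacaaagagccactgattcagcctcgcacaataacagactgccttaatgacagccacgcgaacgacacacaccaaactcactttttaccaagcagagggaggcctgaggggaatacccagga
Dll3: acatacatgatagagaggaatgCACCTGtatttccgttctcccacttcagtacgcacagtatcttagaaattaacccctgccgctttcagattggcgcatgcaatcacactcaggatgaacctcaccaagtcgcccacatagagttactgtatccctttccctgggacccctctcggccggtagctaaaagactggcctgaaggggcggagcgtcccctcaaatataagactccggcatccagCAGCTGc

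Notch1, the receptor of the set, fell about as far as Dll3 but with a much wider spread. Notch1 (NM_008714, chr2:26457902-26503822, minus strand, 34 exons) had 6.54, 5.56, 6.07 and 5.50 FPKM in day 0 replicate 1 and 4.15, 2.98, 0.914 and 0.948 FPKM in replicate 2. The 4 vials of replicate 2 came from 1 RNA, and the divergent pair was well below the other pair. At day 4 Notch1 had 0.196, 0.297, 0.308 and 0.223 FPKM in replicate 1 and 0.262, 0.181, 0.239 and 0.252 FPKM in replicate 2, below every day 0 library. The mean fell from 4.08 ± 2.60 to 0.245 ± 0.0159 FPKM (SD, n = 2), with a difference of -3.45 (SE 0.54, adjusted p = 0.0215). The ratio of day 0 to day 4 was 16.7 over all vials, 19.4 without the divergent vials and 3.80 for the divergent vials alone. The difference was -4.02 and -3.64 in mixes 1 and 2 and -2.75 and -2.85 in mixes 3 and 4. GC correction brought it to -2.31 (SE 0.16), against a median of -1.28 for the 933 genes within 1 point of its 57.1% GC. With a pseudocount of 1 the adjusted p was 0.0537, in a range of 7.55e-05 to 0.251 over all alternatives.

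**Figure D2:**
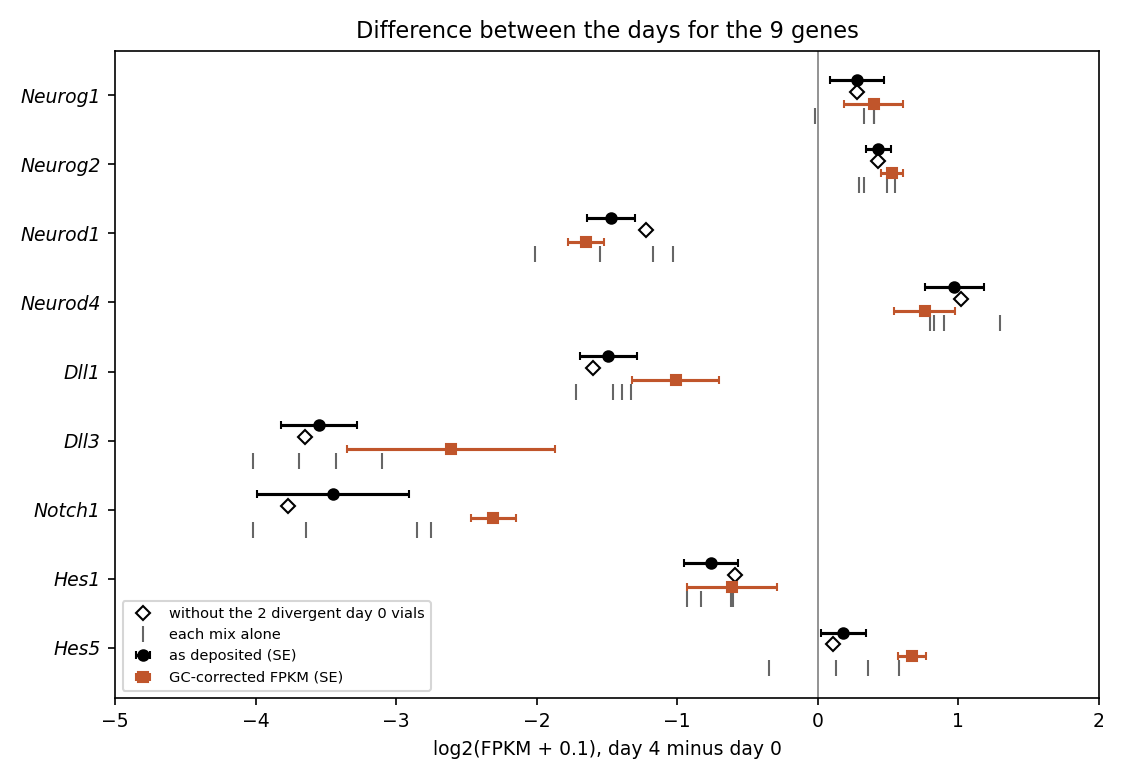
Difference between the days on the log2(FPKM + 0.1) scale (horizontal axis) for the 9 genes, as deposited and after GC correction with SE bars, without the divergent vials, and in each mix alone (ticks). Dll3, Notch1, Dll1, Neurod1 and Hes1 lie below 0 and Neurod4 and Neurog2 above 0 in all of these, while ticks of Neurog1 and Hes5 lie on both sides of 0.

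Of the Hes genes, Hes1 was abundant and Hes5 nearly absent. Hes1 (NM_008235, chr16:30065357-30067796, plus strand, 4 exons) had 46.3, 41.1, 42.9 and 40.3 FPKM in day 0 replicate 1 and 40.3, 41.1, 67.8 and 59.2 FPKM in replicate 2, the divergent vials being the highest. At day 4 it had 25.8, 24.3, 25.2 and 25.8 FPKM in replicate 1 and 31.4, 29.2, 31.7 and 29.2 FPKM in replicate 2, all below the day 0 libraries. The means were 47.4 ± 6.69 and 27.8 ± 3.59 FPKM (SD, n = 2), a ratio of 1.70. The difference of -0.76 (SE 0.19) just missed the threshold with an adjusted p of 0.0533. GC correction gave -0.61 (SE 0.32). The corrected divergent vials were at 92.7 and 75.7 FPKM, against 32.8 to 36.5 FPKM in the rest of day 0. Corrected day 4 values reached 36.5 FPKM. Hes1 passed with the replicate as a block (adjusted p = 0.00859) and without the divergent vials (-0.59, adjusted p = 0.015), while it was at 0.196 after GC correction (0.0166 with the block added) and at 0.267 with equal library totals, in a range of 0.00226 to 0.307.

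Hes5, the Hes gene most closely tied to Notch signalling in neural progenitors, was close to 0 on both days. Hes5 (NM_010419, chr4:154960626-154962372, plus strand, 3 exons) had 0.135, 0.032, 0.032 and 0 FPKM in day 0 replicate 1 and 0.030, 0.020, 0 and 0 FPKM in replicate 2. At day 4 it had 0, 0.048, 0.130 and 0.028 FPKM in replicate 1 and 0.087, 0.029, 0.029 and 0.028 FPKM in replicate 2. The days overlapped and the difference was 0.18 (SE 0.16, adjusted p = 0.433). Hes5 is GC-rich (62.1%), the 154 genes within 1 point of it had a median difference of -1.54, and GC correction moved its own difference to 0.67 (SE 0.10, adjusted p = 0.00876), within a range of 0.00876 to 0.769 over all alternatives.

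The Hes5 window is shown because it alone of the 10 windows held the Rbpj site, in 2 places. Of all windows, 0.161% held it at 2 or more places. The sites begin at positions -226 (as its reverse complement, TTCCCAC) and -83, with an E-box at -194, all in capitals. The window is chr4:154960673-154960922 on the plus strand. It ends at the base before the transcript start that the RefSeq window table uses, which lies inside the gene span given above, and positions count from that start.
Hes5: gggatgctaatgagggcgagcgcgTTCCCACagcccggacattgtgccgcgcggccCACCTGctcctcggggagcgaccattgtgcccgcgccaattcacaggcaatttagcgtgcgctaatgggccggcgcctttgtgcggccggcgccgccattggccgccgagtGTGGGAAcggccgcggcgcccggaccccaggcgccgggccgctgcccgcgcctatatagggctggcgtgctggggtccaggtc

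**Figure D3:**
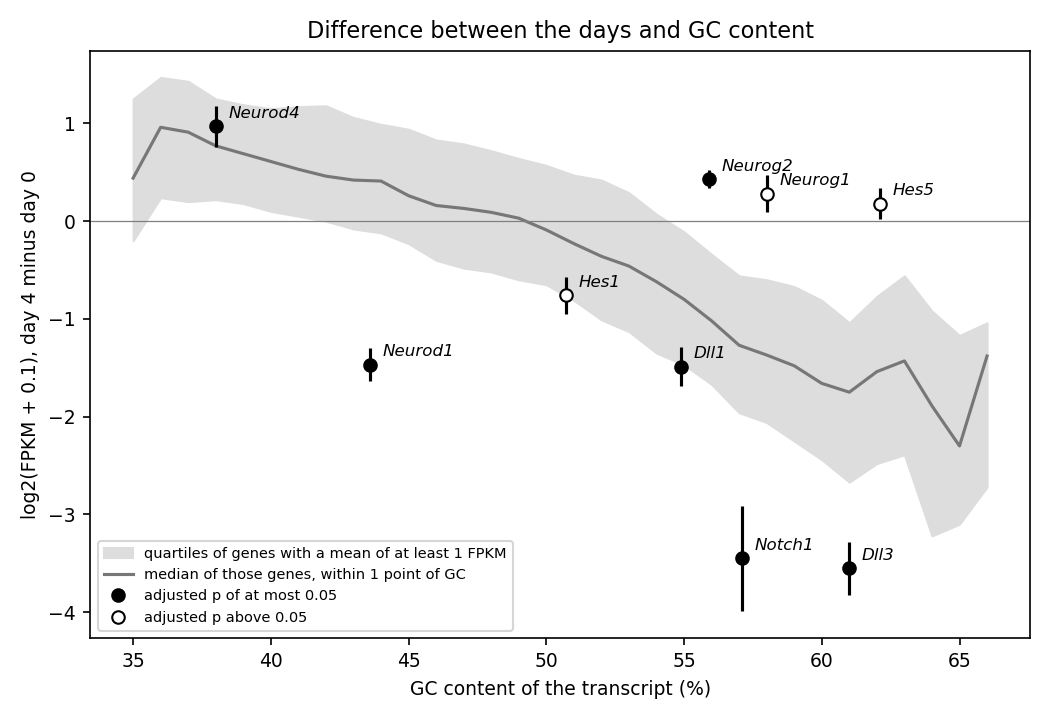
Difference between the days on the log2(FPKM + 0.1) scale (vertical axis, SE bars) against the GC content of the transcript in percent for the 9 genes, over the median (line) and quartiles (band) of genes with a mean of at least 1 FPKM. Notch1, Dll3 and Neurod1 lie below the band, Dll1 and Hes1 at its lower edge and Neurod4 inside it. Neurog1, Neurog2 and Hes5 lie above it, with means below 0.05 FPKM, where this scale leaves little room for a fall. The scale also compresses the rise of Neurod4, whose day 0 mean lies below 0.05 FPKM.

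On the log2(FPKM + 0.1) scale over the 16 libraries, Pearson's r among Dll1, Dll3, Notch1 and Neurod1 ranged from 0.74 (Neurod1 and Notch1) to 0.952 (Dll1 and Dll3). Hes1 had an r of 0.628 with Notch1 and of 0.941 with Neurod1, which like Hes1 was highest in the divergent vials. These values describe 16 libraries from 4 RNA samples that share the step between the days and the divergent vials, and they carry no test. Among 11581 other genes with a mean of at least 1 FPKM, the 3 most like Notch1 were Slc2a1, Gtse1 and Cad (r of 0.999, 0.998 and 0.998), and those most like Dll1 were Chd7, Adssl1 and Tiam2 (0.983, 0.977 and 0.977). The nearest to Neurog2 were Thyn1, Calcoco2 and Rbx1 (0.88, 0.876 and 0.875). Hes5 had no close match, with Pdhb, Nek3 and Ppp1r12b at 0.73, 0.675 and 0.668.

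The rest of the Notch pathway moved in both directions. Of 46 further pathway genes, all tested, 10 rose, 4 fell and 32 did not pass, a share of 30.4% called against 30.5% of all genes, with a median difference of -0.30. With the replicate as a block 13 rose and 16 fell, against 51.6% of all genes called, and after GC correction 19 rose and 12 fell, against 51.8%, with a median of 0.30. Without the divergent vials 15 rose and 20 fell, against 61.5% of all genes. The split between rises and falls in the pathway thus moved with the processing.

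Beside Dll1 and Dll3, 2 ligands fell and 2 rose. Jag2 fell the most, from a median of 2.17 to 0.062 FPKM (-3.29, SE 0.73, adjusted p = 0.0417), and its divergent vials were at 0.206 and 0.213 FPKM. GC correction brought the difference of Jag2 to -2.03. Dlk1, a Delta-like protein that lacks the receptor-binding DSL domain, rose from a median of 1.84 to 11.6 FPKM (2.80, SE 0.40, adjusted p = 0.0185). Dll4, the ligand of endothelial cells, rose from 0.065 to 0.672 FPKM in the median (2.28, SE 0.24, adjusted p = 0.0102), which placed it above Dll1 at day 4. Dlk2, at 0 in all day 4 libraries and at most 0.204 FPKM at day 0, did not pass (adjusted p = 0.0876, and 0.002 with the block). None of the other 3 receptors passed. Notch2, the receptor with the highest mean, had a median of 11.5 FPKM at day 0 and 5.74 FPKM at day 4 (-0.67, SE 0.31, adjusted p = 0.175), above the medians of Notch1 on both days. Of these 3 receptors 1 fell with the block, 2 fell without the divergent vials, and 1 rose and 1 fell after GC correction. Notch3 fell in each of these alternatives (adjusted p of 0.000322, 0.00333 and 0.00803). It went from a median of 11.9 to 1.54 FPKM (-2.35, SE 0.60, adjusted p = 0.0551), or -0.66 after GC correction. Its divergent vials were at 1.16 and 1.39 FPKM, and the days overlapped. Notch2 was at -0.91 (adjusted p = 0.00641) without the divergent vials and at -0.02 (adjusted p = 0.821) after GC correction.

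Of the genes that process ligand and receptor, those that passed in the main fit rose, while with the block some also fell. The share called was 25% of 8 proteases, 20% of 5 glycosyltransferases and 25% of 4 ubiquitin ligases, against 30.5% of all genes. With the block 2 proteases rose and 1 fell, and 3 glycosyltransferases rose and 2 fell. Of the ubiquitin ligases 1 then rose and 2 fell, and 51.6% of all genes passed. Among the proteases 2 of 8 rose, led by Aph1b, a subunit of gamma-secretase, from a median of 0.838 to 9.07 FPKM (3.25, SE 0.26, adjusted p = 0.0066). Psenen, the uncalled protease with the highest level, had a difference of 0.05, or 0.71 (adjusted p = 0.00704) after GC correction. Without the divergent vials 3 proteases rose and 3 fell. Among glycosyltransferases only Pofut1, which adds fucose to Notch, passed in the main fit (0.99, SE 0.23, adjusted p = 0.047). Poglut1 had 0.59 with an adjusted p of 0.0586, or 0.0293 with the block. Among ubiquitin ligases of the ligands only Neurl1b rose (1.14, SE 0.24, adjusted p = 0.0375), and Mib1 had 0.31 with an adjusted p of 0.151, or 0.0342 after GC correction. In the nucleus Maml2, a coactivator of Notch, rose from 0.182 to 2.31 FPKM in the median (3.14, SE 0.24, adjusted p = 0.0062), while Rbpj had 0.63 with an adjusted p of 0.0605, or 0.0251 with the block.

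The modulators and targets each held a rise and a fall. Dtx4, a Deltex ubiquitin ligase, rose from a median of 0.309 to 11.8 FPKM (4.87, SE 0.24, adjusted p = 0.0046), while Nrarp, itself a Notch target that restrains the pathway, fell from 4.32 to 0.669 FPKM (-2.42, SE 0.25, adjusted p = 0.0102). Itch had 0.22 with an adjusted p of 0.456, and turned to -0.25 (adjusted p = 0.0316) after GC correction. Of the 7 other Hes and Hey genes, Hey1 rose from 9.79 to 51.2 FPKM in the median (2.38, SE 0.15, adjusted p = 0.00482) and Hey2 fell from 9.81 to 2.38 FPKM (-2.15, SE 0.22, adjusted p = 0.0102). Heyl was the third that passed, with at most 0.374 FPKM. At day 4 Hey1 had a higher FPKM than Hes1 in every library, the reverse of day 0. Hes6, a Hes protein that promotes neuron formation, had -1.34 with an adjusted p of 0.133, or 0.00298 with the block, and turned to 0.35 after GC correction (adjusted p = 0.0648).

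**Figure D4:**
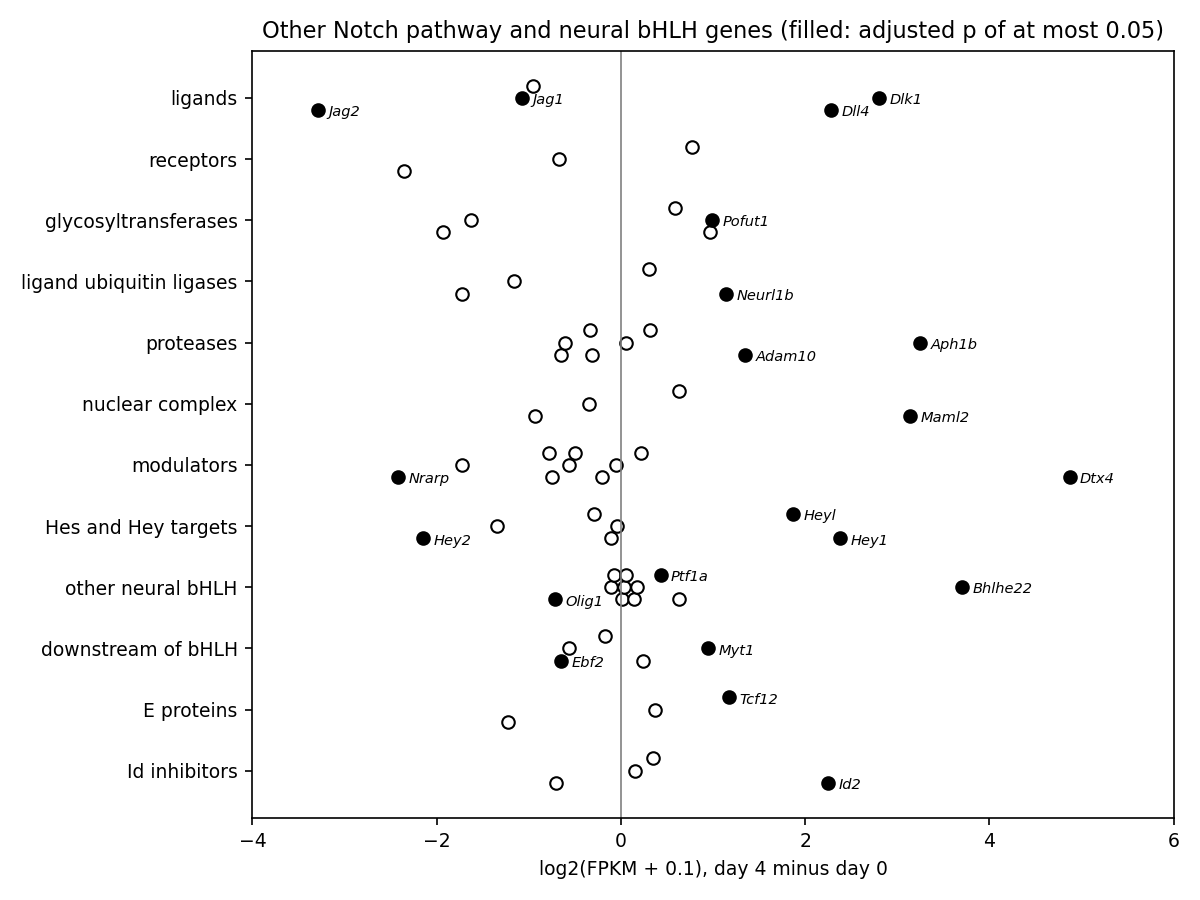
Difference between the days on the log2(FPKM + 0.1) scale (horizontal axis) for other Notch pathway genes and other bHLH genes and partners, by role. Filled points passed an adjusted p of 0.05. Dtx4 at 4.87 and Bhlhe22 at 3.70 lie furthest to the right and Jag2 at -3.29 furthest to the left of the points that passed.

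Of 25 other neural bHLH genes, partners and downstream genes, 24 were tested (Atoh7 was at 0 in all libraries), 6 rose, 2 fell and 16 did not pass. The share called was 33.3%, against 30.5% of all genes, and the median difference was 0.15. Bhlhe22, a bHLH repressor of differentiating neurons, rose from a median of 1.77 to 29.6 FPKM (3.70, SE 0.39, adjusted p = 0.0104), with 4.43 and 3.91 FPKM in the divergent vials. Ptf1a was listed at 0 in all 8 day 0 libraries and reached 0.088 FPKM at day 4. Olig1 fell from 0.0715 to 0 FPKM in the median (-0.71, SE 0.10, adjusted p = 0.0189), and its adjusted p was 0.138 after GC correction. Nhlh2, the highest of the uncalled neural bHLH genes themselves, had at most 0.235 FPKM, with an adjusted p of 0.162, or 0.0239 with the block. Of the genes that act after proneural factors, Myt1 rose (0.95, SE 0.13, adjusted p = 0.016) and Ebf2 fell (-0.65, SE 0.11, adjusted p = 0.0241), both at or below 0.173 FPKM. Ebf1 did not pass (-0.56, adjusted p = 0.0948), but did without the divergent vials (0.0345) and after GC correction (0.0144).

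Among the E protein partners and the Id inhibitors of proneural proteins, Tcf12 and Id2 rose. Tcf12, an E protein, rose from a median of 29.8 to 71.4 FPKM (1.17, SE 0.15, adjusted p = 0.015). Tcf3 went from a median of 27.9 to 8.53 FPKM and did not pass (-1.23, SE 0.64, adjusted p = 0.215), with 4.95 and 4.76 FPKM in the divergent vials. Tcf3 passed with the block (adjusted p = 0.0137) and without the divergent vials (-1.55, adjusted p = 0.029), and turned to 0.35 (adjusted p = 0.141) after GC correction. Id2, an inhibitor that ties up E proteins, rose from 32.9 to 157 FPKM in the median (2.25, SE 0.16, adjusted p = 0.0055), and Id3, with medians of 108 and 93.4 FPKM, had a difference of 0.15 (SE 0.53, adjusted p = 0.829), or 1.13 (adjusted p = 0.00548) after GC correction.

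Markers of the cells that could be present moved with the same comparison, and their part in the results of the 9 genes was not tested. Beside them, 14.5% of all tested genes fell and 16% rose in the main fit. After GC correction 51.8% passed in either direction. The summed level of 5 pluripotency markers, all of which fell, lay between 22.6 and 112 FPKM at day 0 and between 2.85 and 4.59 FPKM at day 4. All 3 primitive streak markers fell, from at least 118 to at most 0.719 FPKM in sum. Of 5 presomitic mesoderm markers, which mark a tissue that uses Dll1, Dll3 and Notch1, 3 fell, or 2 after GC correction. The sum of the 5 lay between 0.324 and 13.3 FPKM at day 0 and at or below 0.233 FPKM at day 4. Msgn1, a defining gene of that tissue, was at 0 in all day 4 libraries. It had 0.108 and 0.348 FPKM in the divergent vials, against a median of 8.50 FPKM over day 0.

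Neural markers moved in both directions. Of 5 progenitor markers Pax6 rose and Sox1 and Sox3 fell, with sums of 18.7 to 25.9 FPKM at day 0 and 18.4 to 21.1 FPKM at day 4, nearly all from Nes. The adjusted p of Sox1 was 0.599 after GC correction. Of 6 neuron markers Dcx rose, from at most 0.029 to at least 1.99 FPKM, and Tubb3, Elavl3 and Stmn2 fell, with sums of 12.3 to 32.5 FPKM and 10.2 to 11.5 FPKM. With the block, after GC correction and without the divergent vials, 3 neuron markers rose and 3 fell. Of 4 endoderm markers 3 rose, Gata6 the most, or 2 after GC correction. The sum of the 4 went from at most 17.2 to at least 73.6 FPKM. Of 4 endothelial markers 2 fell. Of the markers of pancreatic endocrine cells, which also use Neurod1, Pdx1 and Neurog3 did not pass (adjusted p of 0.144 and 0.972) and Ins2 was at 0 in all libraries. Pdx1 lay between 0.019 and 0.191 FPKM at day 0 and at 0 in all day 4 libraries. Its fall passed with the block (adjusted p = 0.00783) and after GC correction (0.0211), but not without the divergent vials (0.0853). Gcg, the other marker, was itself among the transcripts added as spike-ins, so its row is not read here.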

How the data were processed

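The authors mapped paired reads with Bowtie2 2.1.0 to RefSeq transcripts of mm10 plus the spike-ins, estimated abundance with RSEM 1.2.18 and deposited FPKM per transcript, scaled between libraries with TMM factors (0.928 to 1.13 here). All 16 columns were assigned by sample titles. Library totals were 411090 to 622888 FPKM; fragment counts were not used here, so no interval for counting error is given. Of 33750 rows, the 48 spike-in rows and 1700047L14Rik were dropped. FPKM were summed per gene, averaged over the 4 vials of an RNA, and genes at 0 throughout left out. Day 4 was compared with day 0 on log2(FPKM + 0.1) with limma 3.58.1 (lmFit, eBayes with a trend, R 4.3.3), checked on simulated data. The study states a replicate term for its regression of spike-in levels but not for its tests between groups, so the main fit had none. The replicate number marks a run of the procedure in the study's text, and the deviations of same-numbered samples correlated with r = 0.768 over 11584 genes, so blocked values are given where they change the call of a gene described.

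GC content was computed from GENCODE M21 transcripts (97.4% of RefSeq rows matched, and 99.2% to a symbol), and in the GC correction the median log2 deviation of each library from the mean of all libraries, within 20 bins of GC, was taken out. Gene spans and windows are those of RefSeq on GRCm38.p6. The 9 genes, the pathway and marker lists and the tests were chosen with earlier results of these data known. By rule, the 9 genes were named in full and, in each sublist, the called gene with the largest difference in either direction and the uncalled gene with the highest mean. The 3 genes most like a member were those with the highest Pearson r over 16 libraries, for Neurog2, Dll1, Notch1 and Hes5. Atoh7, Dll4, Heyl, Notch3, Ptf1a and the marker genes singled out were named after their values were seen. Python 3.11.15, numpy 2.4.6, pandas 2.3.3 and matplotlib 3.10.9 were used. Spike-in levels were not analysed here. A gene of the bHLH list is counted but not reported here or plotted.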

Additional observations from a re-analysis of the deposited data

Results flagged for a closer look

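In 18 groups of 8 libraries (9 genes on 2 days), 1 library stood far from the other 7 in 2 groups by Dixon's criterion. Its chance rate of about 1 in 20 groups holds for independent normal values, and so not for vials of 2 RNA samples with values at 0. Neurog1 was at 0.023 FPKM in the mix 1 vial of day 0 replicate 1 and at 0 in the other day 0 libraries, where any value above 0 would be flagged. Hes5 was at 0.135 FPKM in the same vial, against at most 0.032 FPKM in the others. Both are single values of a few rounding steps, and 8 libraries of a day come from 2 RNA samples.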

How the results depend on the processing

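Each gene was tested in 19 to 21 of 21 alternatives, and in those the sign of the 7 genes other than Neurog1 and Hes5 did not change. Neurog1 was at -0.02 and Hes5 at -0.35 with mix 1 alone, and Hes5 ranged from -0.02 (without day 0 replicate 2) to 0.39 when 1 RNA sample was left out; the cause was not tested. The number of the 9 genes called (6) was 3 with a pseudocount of 1, 3 with a mean of at least 1 FPKM (only 3 are then tested), and 0 with mix 3 or mix 4 alone, where 3 and 7 had an unadjusted p of at most 0.05. Leaving out 1 RNA sample gave 0 to 4, with 0 when a day 4 replicate was left out, where 5 and 6 had an unadjusted p of at most 0.05; the lone day 4 sample is then assumed to vary like day 0.

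Over all genes, 6253 calls among 20496 tested became 4156 among the 11584 with a mean of at least 1 FPKM. They became 10576 with the replicate block (4615 higher, 5961 lower) and 12528 without the divergent vials. With mixes 1 to 4 alone there were 12302, 9628, 478 and 1119 calls. The count was 9419 with 16 libraries and an estimated correlation, and 10612 with GC correction. It was 11684 with GC correction and the block (added after seeing the data). The range without 1 RNA sample was 0 to 9222. For the 46 Notch pathway genes, 14 calls became 29 with the block, 35 without the divergent vials, 40, 27, 3 and 4 with mixes 1 to 4, 27 with 16 libraries, 31 and 30 with GC correction without and with the block, and 0 to 27 without 1 RNA sample. For the 24 bHLH genes and partners, 8 became 3 with a mean of at least 0.1 or 1 FPKM, where fewer of them were tested. They became 13 without the divergent vials, and 0 and 1 with mixes 3 and 4. On the values as deposited, the block changed no call of the 9 genes other than that of Hes1, and on GC-corrected values those of Dll1 and Hes1. Levels below 0.1 FPKM rest on few rounding steps, which limits Neurog1, Neurog2, Hes5 and Neurod4 most.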
